A study of Homo sapiens with 4 samples.

Results

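Genes of retinoid metabolism and response were examined in MCF10A, an established line of human breast epithelium that forms no tumours. A retrovirus had been used to introduce YAP-W1W2, YAP-S94A, YAP-WT or the empty pQCXIH vector. YAP is the transcriptional coactivator restrained by the Hippo pathway. YAP-W1W2 carries changes in its pair of WW domains, modules that recognise proline-rich motifs. S94A alters a serine in the part of YAP that contacts TEAD transcription factors. YAP-WT is the unmutated protein, and Vector stands for cells with pQCXIH alone. All 4 cultures shared the same medium, with horse serum, EGF, hydrocortisone, insulin and cholera toxin. Whether the cells were pools or clones is not given in the sources used here. There was 1 array per group, so no value has a replicate error and no test between groups was possible. In such bulk RNA, fewer cells of a type and less RNA per cell cannot be told apart.

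The genes were the retinal dehydrogenase ALDH1A3, the carrier CRABP2, the receptors RARA, RARB, RARG and RXRA, the retinal reductase DHRS3, the retinol uptake receptor STRA6 and the response gene RARRES1. These 9 of 19775 genes were chosen by name, with earlier results of these data known. They had 25 of the 54613 probe sets that are not array controls, counting probe sets annotated to exactly 1 gene symbol. A gene was read from its probe set with the highest mean intensity over the 4 arrays. Genes whose mean reached 113.6, the median of all probe sets, are called measured. All 9 passed, among 12759 measured genes, and 14 of their 25 probe sets did. Intensities under 72.9, the 40th percentile, were raised to that floor before log2 was taken. A fold with 1 array at the floor is therefore a lower bound.

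Cells take up retinol through STRA6, which binds the serum carrier RBP4. Retinol dehydrogenases oxidise retinol to retinal, DHRS3 reduces retinal back, and enzymes of the ALDH1A family, ALDH1A3 among them, oxidise retinal irreversibly to retinoic acid. CRABP2 delivers retinoic acid to nuclear receptors, in which an RAR pairs with an RXR and binds direct repeats in DNA. Retinoic acid induces several genes of its own pathway, including RARB, DHRS3, STRA6 and CYP26 hydroxylases. In breast epithelium the pathway is known for restraining growth, and ALDH1A3 for the aldehyde dehydrogenase activity used to mark stem-like breast cancer cells.

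Promoter sequence is shown for the 4 genes at least 2-fold lower in YAP-WT than in Vector, and for RARB, whose promoter holds a textbook retinoic acid response element. Each line gives the 250 bases before a RefSeq start on build GRCh38.p14, 5′ to 3′ on the gene's strand, with capitals marking the motif found. RARB had 4 starts in the table, and the window holding the element is shown. For the other genes it is the window of the outermost start.
RARB (chr3:25428013-25428262, plus strand): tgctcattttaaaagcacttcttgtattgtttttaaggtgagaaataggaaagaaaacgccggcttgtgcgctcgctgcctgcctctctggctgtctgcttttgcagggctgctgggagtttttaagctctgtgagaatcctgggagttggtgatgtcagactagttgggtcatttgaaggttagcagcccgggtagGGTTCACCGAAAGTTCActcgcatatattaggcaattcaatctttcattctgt
ALDH1A3 (chr15:100879581-100879830, plus strand): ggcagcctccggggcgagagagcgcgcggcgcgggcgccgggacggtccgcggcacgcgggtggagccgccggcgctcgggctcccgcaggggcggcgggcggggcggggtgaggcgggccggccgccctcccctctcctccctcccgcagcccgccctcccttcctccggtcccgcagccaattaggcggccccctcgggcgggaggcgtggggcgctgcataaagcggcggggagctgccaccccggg
CRABP2 (chr1:156705785-156706034, minus strand): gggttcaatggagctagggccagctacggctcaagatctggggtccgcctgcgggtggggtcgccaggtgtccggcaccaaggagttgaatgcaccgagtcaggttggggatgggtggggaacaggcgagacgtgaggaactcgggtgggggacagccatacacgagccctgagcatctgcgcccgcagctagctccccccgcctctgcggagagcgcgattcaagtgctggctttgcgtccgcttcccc
DHRS3 (chr1:12618211-12618460, minus strand): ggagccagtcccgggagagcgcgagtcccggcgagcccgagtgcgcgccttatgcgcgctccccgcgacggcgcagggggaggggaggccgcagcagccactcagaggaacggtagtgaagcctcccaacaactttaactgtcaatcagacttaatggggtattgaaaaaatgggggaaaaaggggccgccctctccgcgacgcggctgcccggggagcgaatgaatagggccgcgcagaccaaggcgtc
RARRES1 (chr3:158732458-158732707, minus strand): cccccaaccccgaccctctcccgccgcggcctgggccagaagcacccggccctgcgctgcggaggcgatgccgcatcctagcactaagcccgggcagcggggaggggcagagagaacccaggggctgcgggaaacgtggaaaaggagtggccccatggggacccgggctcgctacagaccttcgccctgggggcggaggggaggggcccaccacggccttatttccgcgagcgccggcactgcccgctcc

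Motifs were searched on both strands of these 250 bases in all 35116 promoter windows of the RefSeq table, of which 21 belonged to the 9 genes. The letters of the receptor hexamer (AGGTCA, or with changed bases AGTTCA, or likewise GGGTCA, or else GGTTCA), repeated in the same direction with 5 bases between, occurred in 26 windows, or 0.0740% of them. The RARB window was the only match among the 21, with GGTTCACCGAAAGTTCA from −53 to −37 before its start. Spacings of 1 and 2 bases occurred in 0.0968% and 0.0313% of all windows and in 0 of the 21. GGAATG, the core bound by TEAD factors, occurred in 11.9% of all windows and in 5 of the 21. These 5 were at starts of DHRS3, RARA and RARB that are not printed here. TGANTCA, the AP-1 motif, which reads the same on both strands, occurred in 6.57% of all windows and in 1 of the 21. That window, at a DHRS3 start not printed here, also held GGAATG. No match overlapped a different motif. The printed windows of ALDH1A3, CRABP2, DHRS3 and RARRES1 held none of these spaced repeats, and neither GGAATG nor TGANTCA, which says nothing of elements elsewhere. Unpaired hexamers were not counted, and the CRABP2 window holds GGTTCA near its 5′ end. Their GC content was 82.4%, 65.6%, 65.2% and 73.2%, against a median of 58% over all windows.

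The 2% trimmed mean intensity of the arrays lay between 458.4 and 503.3. Of 8 markers of breast epithelium, 6 had a probe set with 1 symbol, and all 6 were measured. Their summed intensity also differed, at 138116 in YAP-W1W2, 121611 in YAP-S94A, 108218 in YAP-WT and 84267 in Vector. For fibroblasts 3 of 6 were measured, for endothelium 1 of 5, for immune cells 1 of 4 and for adipocytes 0 of 4. Summed fibroblast marker intensity was 1390 in YAP-W1W2, 1104 in YAP-S94A, 5224 in YAP-WT and 10090 in Vector. Decorin (DCN) gave 248.3, 288, 3884 and 9344 of these sums, in the same order. The collagen gene COL1A1 gave 719.2, 409.9, 1105 and 451.7, more than DCN in YAP-W1W2 and YAP-S94A. COL1A2, the remaining measured marker, gave 232.5, 190.1, 122 and 99.3. Of the measured fibroblast markers, only DCN was highest in Vector. The bacterial hybridization controls bioB, bioC and bioD were lower than in Vector by log2 values of −0.30 to −1.16 in the YAP forms. The control cre differed less from Vector, by −0.22 in YAP-W1W2, −0.04 in YAP-S94A and 0.02 in YAP-WT. The 3 probe sets of YAP1 differed from Vector by −0.24 to 0.60, and whether they detect the introduced YAP is not known. The part of these in the values below was not tested.

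As a guide to measurement error, the log2 differences given by the 2 brightest measured probe sets of the same gene were set against each other. Where the dimmer had a mean over 1000, they differed by a median of 0.16 to 0.25 over the 6 pairs of arrays, in 1577 genes, with a 90th percentile of 0.45 to 0.67. Where it was under 300, the median was 0.48 to 0.61 and the 90th percentile 1.32 to 1.58, in 2037 genes. This covers probe sets within an array, and leaves out the spread between cultures.

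ALDH1A3 was low in YAP-WT and high with both mutant forms. Its probe set 203180_at had an intensity of 5359 in YAP-W1W2, 4597 in YAP-S94A, 630.5 in YAP-WT and 2296 in Vector. The mutant arrays were thus above Vector, and YAP-WT below it. YAP-WT was 3.64-fold lower than Vector, a difference reached or exceeded downwards by 119 of 12759 measured genes, ALDH1A3 included. YAP-W1W2 was 2.33-fold higher than Vector. YAP-S94A was 2.00-fold higher than Vector, at the line itself, and its log2 difference of 1.00 was 0.84 after quantile normalization.

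Against YAP-WT directly, ALDH1A3 was 8.50-fold higher in YAP-W1W2 and 7.29-fold higher in YAP-S94A. Only 6 measured genes, ALDH1A3 among them, were that much higher in YAP-W1W2, and 20 in YAP-S94A. YAP-W1W2 and YAP-S94A differed from each other by 0.22 (log2), about the disagreement between bright probe sets. The second ALDH1A3 probe set, 1558649_at, read 50.1 in YAP-W1W2, 45.1 in YAP-S94A, 73.4 in YAP-WT and 63.4 in Vector, all at or near the floor, and shows no difference. With it averaged in, the log2 difference of YAP-WT from Vector was −0.93 in place of −1.86, and that of YAP-W1W2 from YAP-WT was 1.54 in place of 3.09.

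DHRS3, the enzyme that returns retinal to retinol, had the same order of arrays. Its probe set 202481_at read 3689 in YAP-W1W2, 2869 in YAP-S94A, 1094 in YAP-WT and 2731 in Vector. YAP-WT stood alone at the low end, 2.49-fold below Vector, while YAP-W1W2 lay 0.43 above Vector on the log2 scale. The difference of YAP-S94A from Vector was 0.07, and −0.10 after quantile normalization, so it has no settled direction. Against YAP-WT, DHRS3 was 3.37-fold higher in YAP-W1W2 and 2.62-fold higher in YAP-S94A. DHRS3 had 1 probe set, so no second reading exists on these arrays.

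STRA6, the uptake receptor, was higher with every YAP form. Probe set 221701_s_at read 301 in YAP-W1W2, 331.6 in YAP-S94A, 331.3 in YAP-WT and 105.8 in Vector. The YAP forms lay within 0.14 (log2) of each other and were 2.84-fold, 3.13-fold and 3.13-fold above Vector, in that order. This rests on 1 dim probe set. The next, 1569335_a_at, whose mean was below the measured level, read 49.4 in YAP-W1W2, 127.5 in YAP-S94A, 122.5 in YAP-WT and 100.2 in Vector. There YAP-W1W2 was under the floor and its difference from Vector was −0.46 (log2) or lower, and those of YAP-S94A and YAP-WT were 0.35 and 0.29.

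**Figure D1:**
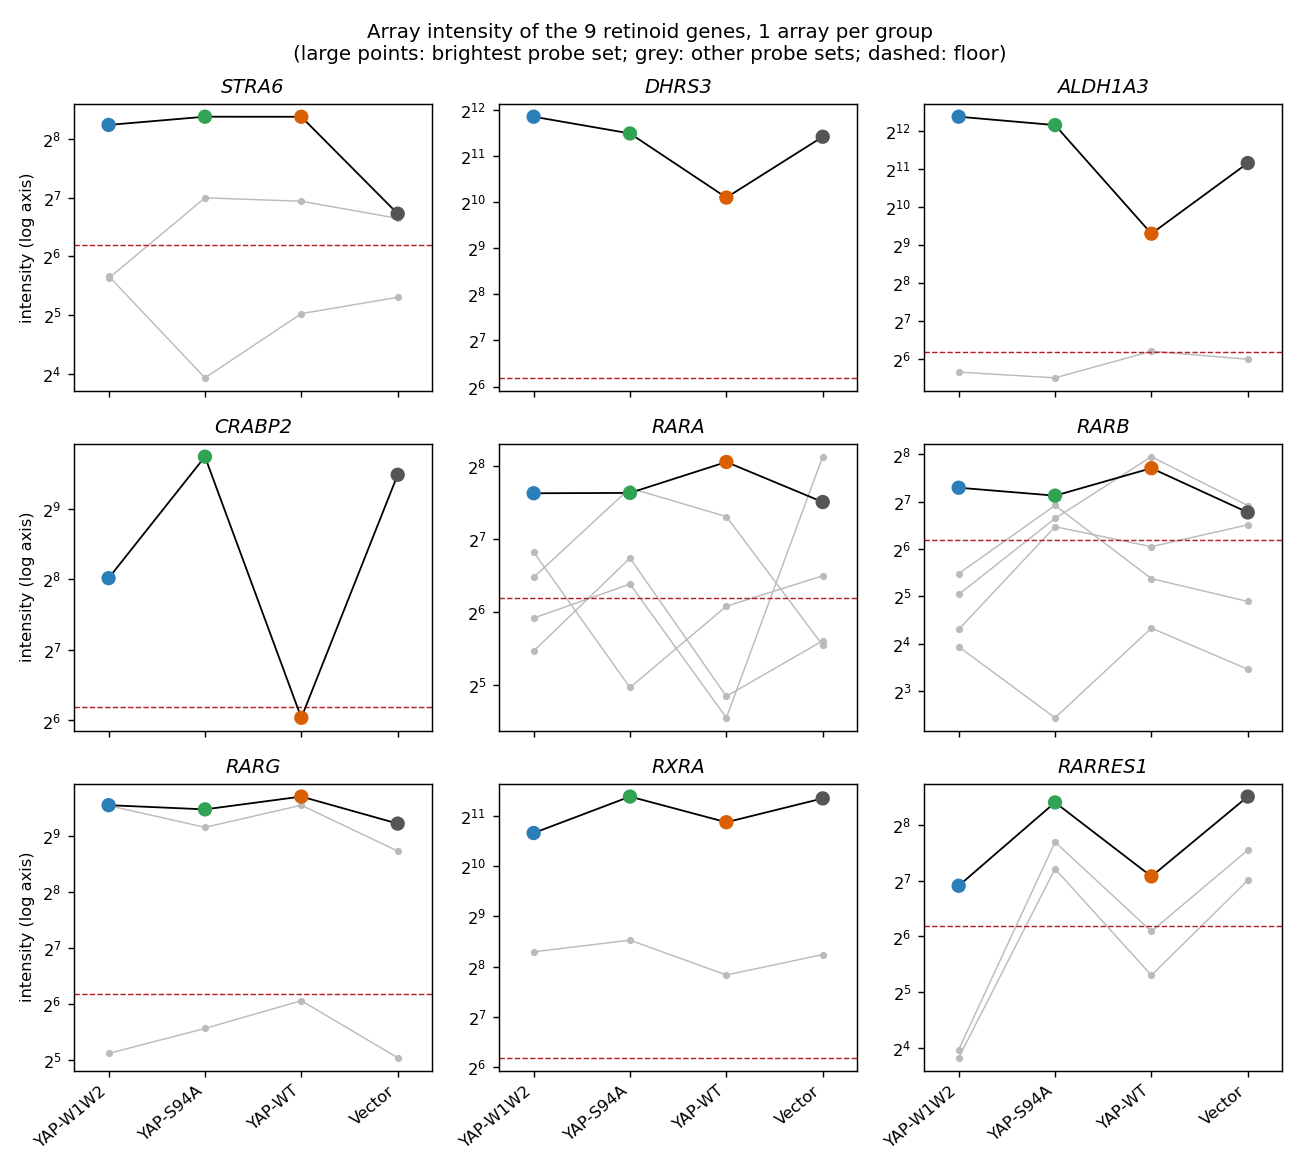
Intensity of every probe set of the 9 genes (log axis) on the arrays of YAP-W1W2, YAP-S94A, YAP-WT and Vector, with large points for the brightest probe set, grey for others and a dashed line at the floor of 72.9. ALDH1A3, DHRS3 and CRABP2 are lowest in YAP-WT, RARRES1 is low in YAP-W1W2 and YAP-WT, and STRA6 is lowest in Vector.

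CRABP2, which hands retinoic acid to its receptors, was close to Vector in YAP-S94A, intermediate in YAP-W1W2 and at the floor in YAP-WT. Its probe set 202575_at read 258.9 in YAP-W1W2, 854.4 in YAP-S94A, 65.7 in YAP-WT and 715 in Vector. YAP-WT was at least 9.81-fold below Vector, and only 7 measured genes, CRABP2 included, were as low or lower in that comparison. YAP-W1W2 was 2.76-fold below Vector, and YAP-S94A stood at 0.26 (log2) above it.

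Set against YAP-WT, CRABP2 was at least 3.55-fold higher in YAP-W1W2 and at least 11.7-fold higher in YAP-S94A. Against YAP-WT, 6 measured genes, CRABP2 included, were as high or higher in YAP-S94A. Unlike ALDH1A3 and DHRS3, CRABP2 also differed between the mutants, at 3.30-fold lower in YAP-W1W2 than in YAP-S94A. With the floor at the 50th percentile the bounds against Vector and YAP-WT moved to −2.64 (log2) in YAP-WT, 1.18 in YAP-W1W2 and 2.90 in YAP-S94A. CRABP2 also had 1 probe set.

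The receptors differed less than 2-fold in every pair of arrays by their brightest probe sets. RARG, the retinoic acid receptor prominent in skin epithelium, read 750 in YAP-W1W2, 712 in YAP-S94A, 834.1 in YAP-WT and 597.1 in Vector on 204188_s_at. Its second measured probe set, 204189_at, read 746.2 in YAP-W1W2, 570.2 in YAP-S94A, 749.3 in YAP-WT and 425.3 in Vector. Vector was again lowest, while YAP-WT and YAP-W1W2 lay within 0.01 (log2) of each other on 204189_at. The largest RARG difference from Vector was 0.82 (log2), in YAP-WT on that probe set.

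RXRA, the shared partner of the RARs, read 1611 in YAP-W1W2, 2661 in YAP-S94A, 1869 in YAP-WT and 2595 in Vector on 202449_s_at. YAP-S94A and Vector thus lay within 0.04 (log2) of each other and above the other arrays, by up to 0.72. The dimmer 202426_s_at put YAP-W1W2 and Vector within 0.06 of each other, with 313.5 in YAP-W1W2, 368.1 in YAP-S94A, 227.9 in YAP-WT and 301.7 in Vector. YAP-WT below Vector, at −0.47 and −0.40, was common to both probe sets.

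RARB, itself a retinoic acid target through the element printed above, read 157.3 in YAP-W1W2, 140 in YAP-S94A, 209.4 in YAP-WT and 109.5 in Vector on 217020_at. YAP-WT was highest, at 0.94 (log2) above Vector, short of 2-fold. On 205080_at it was again highest, with 248 in YAP-WT against 121.1 in Vector, or 1.03. There YAP-W1W2, at 32.9, lay under the floor, and YAP-S94A read 100.3. The other 3 RARB probe sets averaged below the measured level. Which RARB start each probe set sees is not known.

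RARA read 197.3 in YAP-W1W2, 197.9 in YAP-S94A, 265.5 in YAP-WT and 181.5 in Vector on 203749_s_at, a spread of at most 0.55 (log2). Its other probe sets did not share a direction. On 203750_s_at Vector was highest, with 60.3 in YAP-W1W2, 83.3 in YAP-S94A, 23.4 in YAP-WT and 279.3 in Vector. On 216300_x_at Vector was lowest, with 88.8, 207.1, 158.1 and 46.6 in the same order of arrays. No direction is given for RARA.

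RARRES1, a membrane protein gene named for its induction by the retinoid tazarotene in skin, was lower in YAP-W1W2 and YAP-WT than on the other arrays. Probe set 221872_at read 120.1 in YAP-W1W2, 338 in YAP-S94A, 134.9 in YAP-WT and 363.5 in Vector. The arrays thus formed a low pair and a high pair. YAP-W1W2 was 3.03-fold and YAP-WT 2.69-fold below Vector, while YAP-S94A lay at −0.10 (log2), with 0.14 and 0.21 on the other probe sets. YAP-S94A was 2.51-fold above YAP-WT, and YAP-W1W2 2.81-fold below YAP-S94A. All 3 RARRES1 probe sets gave the same low and high pairs. On 206392_s_at the values were 15.7 in YAP-W1W2, 206.7 in YAP-S94A, 68.2 in YAP-WT and 187.1 in Vector, with the low pair under the floor. The third, 206391_at, was dimmer than the measured level.

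Across the 9 genes, YAP-WT against Vector had 1 gene at least 2-fold higher, STRA6, and 4 at least 2-fold lower, ALDH1A3, CRABP2, DHRS3 and RARRES1. Of all measured genes 14.1% passed 2-fold in that comparison, 9.11% higher and 4.95% lower. The median log2 difference was −0.47 over the 9 genes and 0.14 over all measured genes. Because the genes were chosen with earlier results known, these counts and medians only describe them, here and in the comparisons below.

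YAP-S94A against Vector had 2 of the 9 higher, STRA6 and ALDH1A3, and 0 lower, where 16.8% of measured genes passed, 10.3% higher and 6.53% lower. YAP-W1W2 against Vector had 2 higher, STRA6 and ALDH1A3, and 2 lower, CRABP2 and RARRES1, where 19.8% passed, 11.4% higher and 8.4% lower. The medians over the 9 genes were 0.25 and 0.33, against 0.14 and 0.10 over all measured genes. These comparisons and the preceding use the same Vector array.

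**Figure D2:**
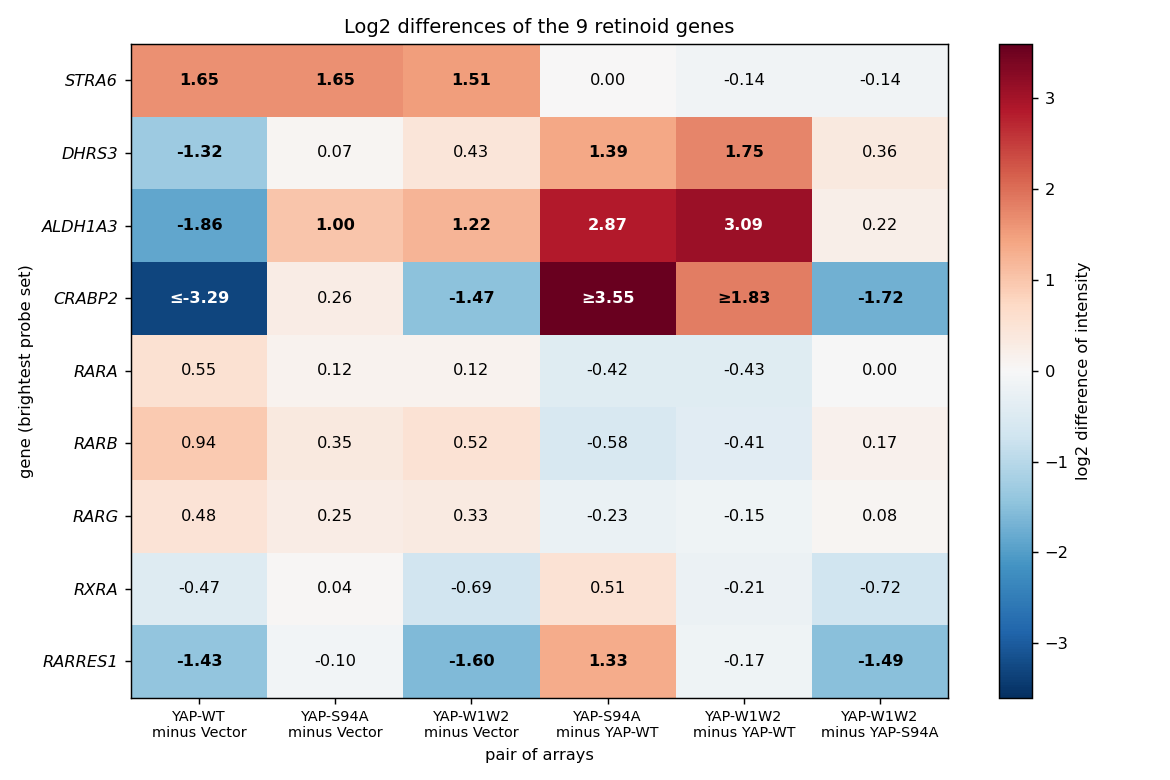
Log2 difference of intensity for each of the 9 genes (rows, brightest probe set) in each pair of arrays (columns), with bounds marked by ≤ or ≥ and differences of at least 2-fold in bold. ALDH1A3 ran from −1.86 in YAP-WT against Vector to 3.09 in YAP-W1W2 against YAP-WT, while RARA, RARB, RARG and RXRA stayed within 0.94 of 0.

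YAP-S94A against YAP-WT compares the form with an altered TEAD contact to the unmutated protein. CRABP2, ALDH1A3, DHRS3 and RARRES1 were higher, which makes 4 of 9, and 0 were lower. Among all measured genes 11.3% passed, 5.06% higher and 6.27% lower. The median was 0.51 over the 9 genes and 0.01 over all. In YAP-W1W2 against YAP-WT, which differ in the WW domains, ALDH1A3, CRABP2 and DHRS3 were higher, 3 of 9, with 0 lower. There 9.5% of measured genes passed, 3.91% higher and 5.59% lower, and the medians were −0.15 and −0.04. All these calls lean on the single YAP-WT array, and the mutations cannot be told apart from differences between cultures.

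YAP-W1W2 against YAP-S94A does not use that array. CRABP2 and RARRES1 were lower in YAP-W1W2, 2 of 9, and 0 were higher. Of all measured genes 9.43% passed, 4.98% higher and 4.45% lower. ALDH1A3 and DHRS3, at 0.22 and 0.36 (log2), were not told apart between the mutants at this precision.

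**Figure D3:**
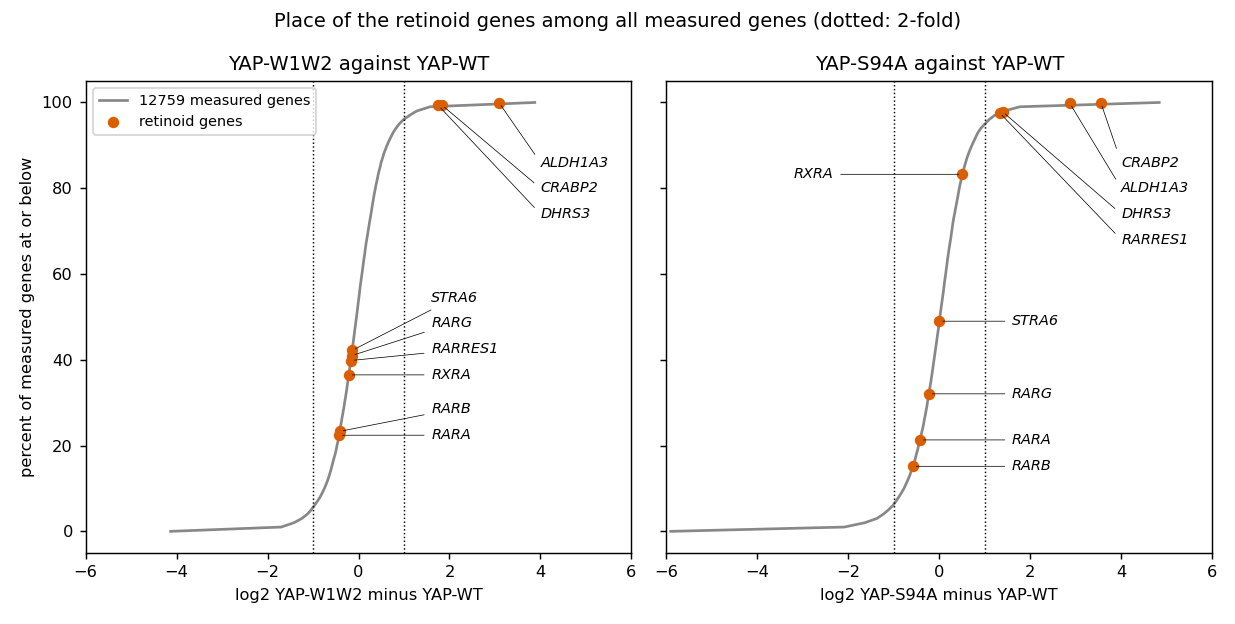
Percent of the 12759 measured genes at or below a given log2 difference (grey line), with the 9 genes as points, for YAP-W1W2 and YAP-S94A against YAP-WT. ALDH1A3, CRABP2 and DHRS3 lie beyond the dotted 2-fold line in both, RARRES1 only in YAP-S94A, and the receptors lie inside it.

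Counts over all 4 arrays, chosen after the values were seen, place these genes among the rest. ALDH1A3, CRABP2 and DHRS3 were at least 2-fold lower in YAP-WT than on each other array, a pattern held by 0.705% of measured genes. STRA6 was at least 2-fold above Vector in every YAP form, as were CYP26B1 and TGM2 by their brightest probe sets, where 3.93% of measured genes were. Of the 9 genes 0 were below Vector in every form, where 1.65% of measured genes were, RDH10, AKR1B10, AKR1C3 and MEIS1 among them by their brightest probe sets.

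A wider list of 66 other retinoid genes was looked at by role. Of these 53 had a probe set with 1 symbol and 27 were measured. Against Vector, 5 of the 27 were at least 2-fold higher and 6 lower in YAP-W1W2, 5 and 6 in YAP-S94A, and 2 and 4 in YAP-WT. Their median log2 differences were −0.01, −0.09 and 0.06 in that order of forms. In YAP-S94A against YAP-WT 1 was higher and 2 lower, and in YAP-W1W2 against YAP-WT 1 and 3. In YAP-W1W2 against YAP-S94A 1 was higher and 2 lower. Of all measured genes 11.4%, 10.3% and 9.11% were at least 2-fold higher than Vector in YAP-W1W2, YAP-S94A and YAP-WT. In the same order of forms, 8.4%, 6.53% and 4.95% were lower. For the comparisons between forms, in the order given, 5.06%, 3.91% and 4.98% were higher and 6.27%, 5.59% and 4.45% lower.

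Among carriers, RBP4, the serum retinol carrier, read 24.6 in YAP-W1W2, 64.1 in YAP-S94A, 237.6 in YAP-WT and 439.8 in Vector. Both mutants were at the floor, at least 6.03-fold below Vector and at least 3.26-fold below YAP-WT. DGAT1, which can esterify retinol, passed 2-fold in YAP-W1W2 against YAP-WT, at −1.03.

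The oxidoreductases that passed 2-fold against Vector were lower by their brightest probe sets. Of 8 measured besides DHRS3, 0 were at least 2-fold higher in any YAP form, while 4 were lower in YAP-W1W2, 4 in YAP-S94A and 3 in YAP-WT. Of all measured genes 8.4%, 6.53% and 4.95% were lower in that order of forms, and 11.4%, 10.3% and 9.11% higher. RDH10, the main retinol dehydrogenase of the embryo in mice, read 1232 in YAP-W1W2, 715.6 in YAP-S94A, 1230 in YAP-WT and 2552 in Vector. In YAP-WT another of its probe sets gave −0.91 (log2) against Vector, under 2-fold, where the brightest gave −1.05. AKR1C3, an aldo-keto reductase that also reduces retinal, read 200.7 in YAP-W1W2, 457.7 in YAP-S94A, 459.6 in YAP-WT and 2418 in Vector. Its log2 difference from Vector was −3.59 in YAP-W1W2 and −2.40 in each of the others.

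AKR1B10, a retinal reductase, was lower than Vector by log2 values of −1.18 in YAP-W1W2, −1.79 in YAP-S94A and −1.45 in YAP-WT. RDH5 reached −1.02 in YAP-S94A, and RDH11 −1.19 in YAP-W1W2, where another of its probe sets gave 0.35. SDR16C5 passed 2-fold in YAP-W1W2 against YAP-S94A, at −1.04. The other retinal dehydrogenases, ALDH1A1, ALDH1A2 and ALDH8A1, were not measured, so ALDH1A3 was the only listed enzyme of its step that could be read.

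CYP26B1, which breaks down retinoic acid, was higher in all YAP forms, with 540.6 in YAP-W1W2, 374.8 in YAP-S94A, 592.5 in YAP-WT and 184.7 in Vector. PPARD, a fatty acid receptor that can also respond to retinoic acid, read 1790 in YAP-W1W2, 1667 in YAP-S94A, 668.6 in YAP-WT and 798 in Vector. It was therefore 2.68-fold and 2.49-fold higher in YAP-W1W2 and YAP-S94A than in YAP-WT, though its 3 measured probe sets ranged from −0.48 to 1.42 and from 0.31 to 1.32 (log2). The 3 measured coregulators stayed inside 2-fold by their brightest probe sets, but other measured probe sets did not. For NCOA1 these reached −1.68 (log2) in YAP-S94A against Vector. For NCOA2 they reached −1.55 in YAP-WT against Vector and 1.56 in YAP-W1W2 against YAP-WT.

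Of 10 measured response genes besides RARRES1, TGM2, a transglutaminase induced by retinoic acid, differed most. It read 1209 in YAP-W1W2, 474.5 in YAP-S94A, 1316 in YAP-WT and 128.5 in Vector. In YAP-S94A its second measured probe set gave 0.46 (log2) against Vector, where the brightest gave 1.88, and in YAP-W1W2 against YAP-S94A the 2 gave 0.98 and 1.35. GPRC5A, a receptor gene found as retinoic acid-induced, read 27355 in YAP-W1W2, 21340 in YAP-S94A, 15511 in YAP-WT and 8358 in Vector, with a log2 difference of YAP-S94A from Vector of 0.78 to 1.35 over its 3 measured probe sets. The homeobox gene HOXB2 was higher than Vector by log2 values of 1.17 in YAP-W1W2, 1.45 in YAP-S94A and 0.85 in YAP-WT. MEIS1, a homeobox partner gene, was lower, at −1.78, −1.95 and −1.20, and its other measured probe set gave −0.74 in YAP-WT. Response genes thus differed either way, and RARRES1 and TGM2 differed in opposite directions in YAP-WT.

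**Figure D4:**
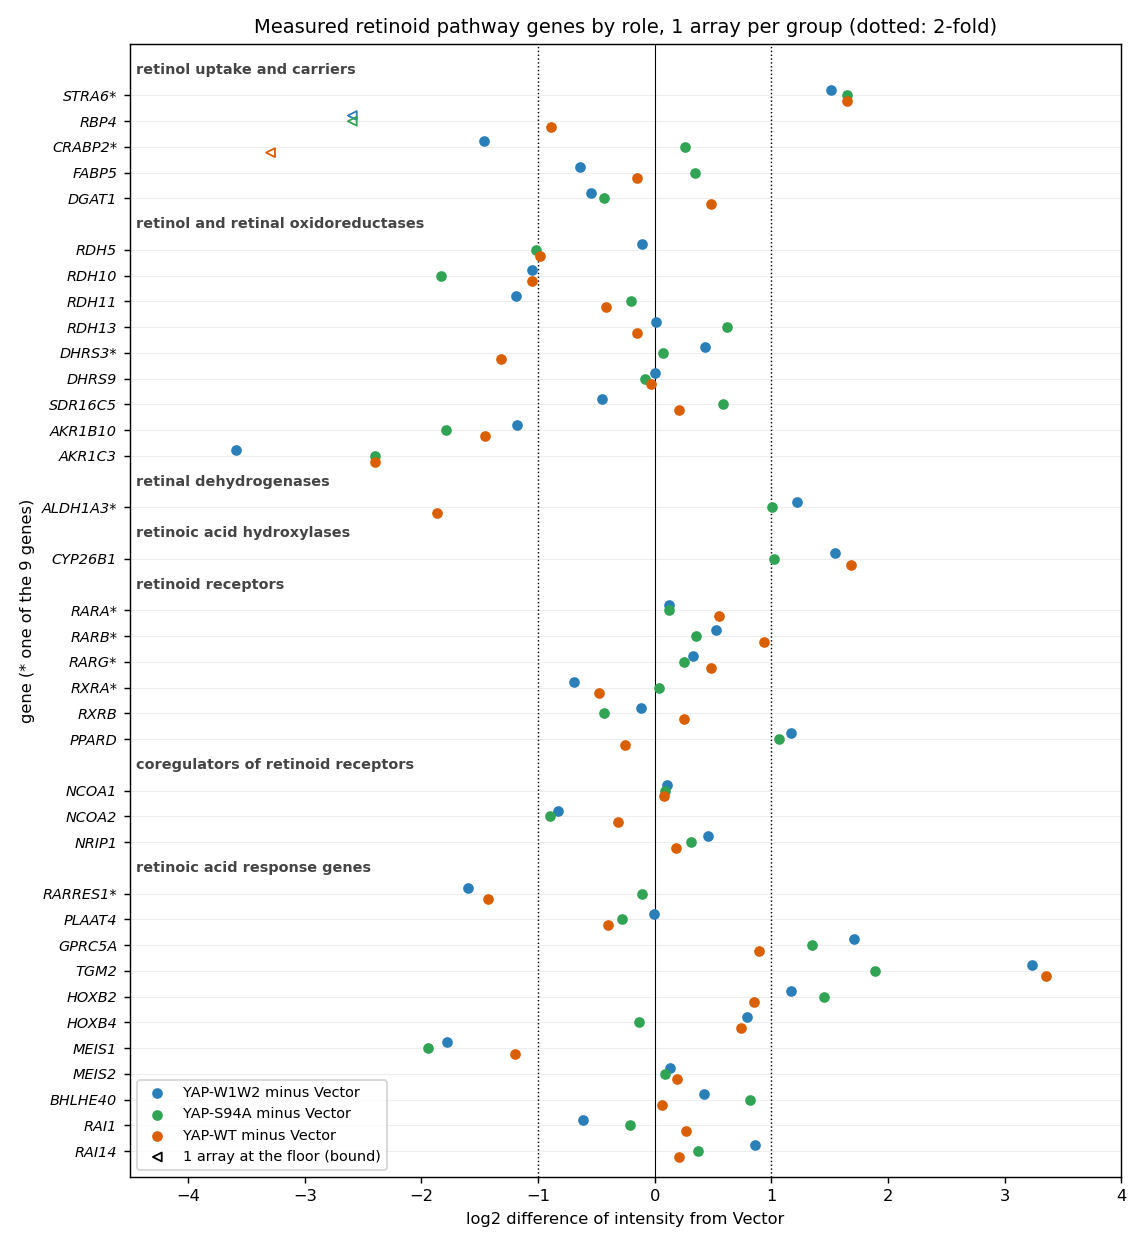
Log2 difference from Vector of the 36 measured retinoid genes, grouped by role, in YAP-W1W2, YAP-S94A and YAP-WT, with stars for the 9 genes, triangles for bounds and dotted lines at 2-fold. Oxidoreductases past 2-fold lie to the left, STRA6, CYP26B1 and TGM2 to the right in every YAP form by their brightest probe sets, and ALDH1A3 on opposite sides in YAP-WT and the mutants.

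The measured genes whose 4-array pattern lay nearest to that of ALDH1A3 were PPP2R2D, ESRP1, CYP3A4, SRC and LRRC43, at Euclidean distances of 0.58 to 0.75 over log2 values centred on each gene's mean. ESRP1, an epithelial splicing regulator, read 1446 in YAP-W1W2, 1526 in YAP-S94A, 287.5 in YAP-WT and 1039 in Vector. The other 4 read under 90 in YAP-WT, near or below the floor. DHRS3 was the nearest of the 9 genes, the 37th of all measured genes at a distance of 1.20, while CRABP2 stood 881st.

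Nearest to CRABP2 were the basal keratin KRT15, the chemokine CXCL2, the calcium channel RYR1, the cornified envelope gene SPRR3 and IGFL1, at 0.64 to 0.92. KRT15 read 1523 in YAP-W1W2, 6996 in YAP-S94A, 678.3 in YAP-WT and 7699 in Vector. RYR1 and SPRR3 were below the floor in YAP-WT, as CRABP2 was. RARRES1 was the nearest of the 9 genes to CRABP2, 116th at 1.78.

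**Figure D5:**
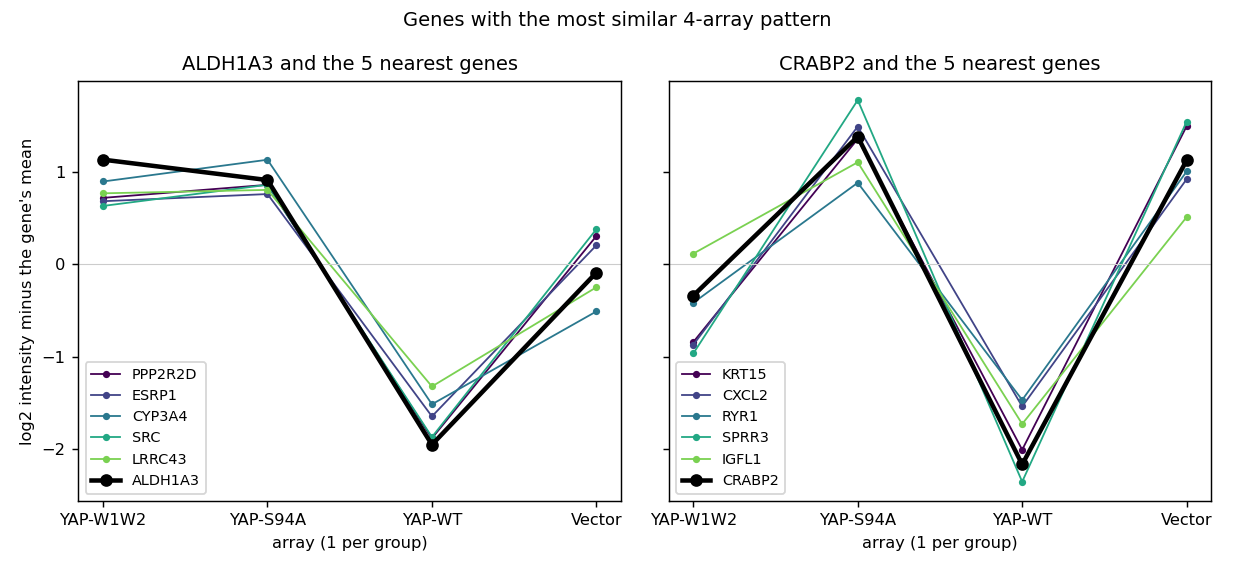
Log2 intensity minus each gene's own mean on the 4 arrays, for ALDH1A3 (left) and CRABP2 (right) in black with the 5 measured genes of nearest pattern. All dip in YAP-WT, and the CRABP2 set is also below its own YAP-S94A and Vector values in YAP-W1W2.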

How the data were processed

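The authors deposited array intensity values, linear and 1 per probe set and array. GCOS, Affymetrix's array software, is named in the submitters' processing notes. The version and the target value were not given in the sources used here. No detection calls were used. Probe sets were named from the platform annotation, 41097 with 1 symbol, 1801 with several and 11777 with none. The trimmed means of the arrays lay within 10%, so values were used unscaled. Values were floored and log2 transformed, arrays were subtracted in 6 pairs, and genes were counted at 2-fold. A single array per group allows no p-value and limits the precision. The counting was tested on simulated data. Python 3.11.15, pandas 2.3.3 and numpy 2.4.6 were used. Named were all 9 genes, every measured gene of the wider list at least 2-fold apart in any pair, and the 5 nearest patterns to ALDH1A3 and CRABP2. The unmeasured retinal dehydrogenases, the coregulators NCOA1 and NCOA2, and the markers DCN, COL1A1 and COL1A2 were singled out after their values were seen. Genes and lists were chosen with earlier results of these data known. Promoter sequences are from RefSeq, and all 9 genes matched. Alternatives changed the scaling, floor, probe set, filter on dim genes and fold.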

Additional observations from a re-analysis of the deposited data

How the results depend on the processing

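Scaling the arrays to a common median, moving the floor to the 20th or 50th percentile and dropping the filter on dim genes left every count of genes past 2-fold as reported. Averaging over probe sets gave 3 genes in YAP-WT against Vector, 0 in YAP-S94A against Vector and 2 in YAP-W1W2 against Vector. With averaging, 8.97%, 11.3% and 13.2% of all measured genes passed in these comparisons, in that order. Quantile normalization gave 1 in YAP-S94A against Vector, where 16.4% of all measured genes passed. Probe sets without the _s_at or _x_at suffix gave 3 genes against Vector for YAP-W1W2, 1 for YAP-S94A and 4 for YAP-WT. Of all genes measured under that rule, 20.4%, 17.3% and 14.5% passed, in the same order. That rule left 7 of the 9 genes measured, and STRA6, which was then too dim, was called in no YAP form. A 3-fold line gave 3 genes in YAP-WT against Vector, 1 in YAP-S94A against Vector, 1 in YAP-W1W2 against Vector, 2 in YAP-S94A against YAP-WT and 1 in YAP-W1W2 against YAP-S94A. Of all measured genes 4.77%, 5.64%, 7.38%, 3.64% and 3.11% passed it in those comparisons, in that order. Of 324 single differences under 6 alternatives, 16 changed sign. Of these 15 were under 2-fold as reported, 8 of them in RARA, and 1 was past it, that of STRA6 in YAP-W1W2 against Vector, at −0.46 or lower without suffixed probe sets. Apart from that value, 303 moved by at most 1.5-fold and 20 by more. Fewer probe sets or a higher line shape these counts by construction; other causes were not tested. Quantile normalization moved the share of higher calls in YAP-W1W2 against YAP-WT from 41.2% to 49.5%, and the median gene of YAP-WT against Vector to 0.02 (log2). No paired analysis was possible because each group had 1 array.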

Other observations

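These patterns were chosen after the values were seen. In YAP-WT 70 of 12759 measured genes (0.549%) stood at least 2-fold above each other array, with 0 of the 9 retinoid genes. A further 78 genes (0.611%) were at least 2-fold lower in both YAP-W1W2 and YAP-WT than in both YAP-S94A and Vector, CRABP2 and RARRES1 among them. In all, 4544 measured genes (35.6%) differed by 2-fold between some pair of arrays, as did 5 of the 9 genes and 14 of the 27 other measured retinoid genes. Each pattern rests on 1 array per group.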
